A study of Mus musculus with 20 samples.

Results

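Respiratory complex I, NADH:ubiquinone oxidoreductase, was examined through 35 genes measured in the epididymal fat pads of 20 male mice. They were the genes whose symbol is Nduf followed by a, b, c, s or v and a number, each represented by 1 probe set, 35 of the 22206 probe sets on the arrays. By role, 34 of them encode subunits of complex I, and Ndufa4, although named as one, encodes a protein that belongs to complex IV. Ndufb1 was not analysed here. Expression was measured with 1 array per mouse, as log2 signals. All mice were C57BL/6 and homozygous for a floxed Tnf allele (Tnf encodes the inflammatory cytokine TNF-α). The 10 cre mice carried 1 copy of LyzMcre, which drives Cre in macrophages and other myeloid cells, and the 10 wt littermates carried none. Both groups ate chow to 10 weeks of age and then a purified diet with 40% of calories from fat for 18 weeks, and tissue was taken at 28 weeks. Each of 2 batches held 5 wt and 5 cre mice, and a mouse is named below by its genotype and replicate number (odd numbers in batch 1, even in batch 2). What a batch was is not given in the sources used here.

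Complex I takes electrons from NADH, passes them through a flavin and a chain of iron-sulfur clusters to ubiquinone, and pumps protons across the inner mitochondrial membrane. It is shaped like an L, with a matrix arm that holds the cofactors and a membrane arm that holds the proton channels. The catalytic subunits of the matrix arm are nuclear genes, those of the membrane arm are encoded by mitochondrial DNA, and many accessory subunits surround both. Adipocytes depend on oxidative phosphorylation for fatty acid esterification and for secretion of adiponectin, the product of Adipoq. Macrophages, marked by the surface receptor gene Adgre1, collect in obese epididymal fat. In whole tissue, fewer cells of a type and less RNA per cell cannot be told apart.

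Promoter windows were available from RefSeq (build GRCm38.p6, the mm10 assembly) for 32 of the 35 genes, as 34 windows of 250 bases before and 50 after the start. Ndufa2, Ndufb9 and Ndufs1 had no entry. The motifs given next were searched on both strands, letter by letter. GCATGCGC, part of the site of the mitochondrial regulator NRF1, was in 3 of 34 windows (8.82%), those of Ndufa6, Ndufa8 and Ndufa11, and in 2.71% of all 32851 windows. AAGATGGCG, a YY1 motif, was in 5 (14.7%), those of Ndufa9, Ndufc1, Ndufs4, Ndufs6 and Ndufs7, and in 1.4% of all windows. CCGGAAGT, an ETS motif of the kind bound by GABPA, was in 1 (2.94%), that of Ndufs3, against 3.89%. TCAAGGTCA, an ERR motif, was in 0 of 34 against 0.423%. A match is a description of letters and not a site. The 250 bases before the start, written 5′ to 3′ on the strand of the gene, are shown for the 3 genes with the smallest adjusted p in relation to Adgre1, Ndufv1, Ndufs3 and Ndufs5, and for a pair that holds the NRF1 letters there, Ndufa6 and Ndufa8. Capitals mark GCATGCGC.
Ndufv1, chr19:4012756-4013005, minus strand: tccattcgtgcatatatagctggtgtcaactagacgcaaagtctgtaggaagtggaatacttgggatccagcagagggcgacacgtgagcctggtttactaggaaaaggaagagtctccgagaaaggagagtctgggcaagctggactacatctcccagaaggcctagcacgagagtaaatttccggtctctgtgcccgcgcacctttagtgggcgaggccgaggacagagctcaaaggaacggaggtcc
Ndufs3, chr2:90904722-90904971, minus strand: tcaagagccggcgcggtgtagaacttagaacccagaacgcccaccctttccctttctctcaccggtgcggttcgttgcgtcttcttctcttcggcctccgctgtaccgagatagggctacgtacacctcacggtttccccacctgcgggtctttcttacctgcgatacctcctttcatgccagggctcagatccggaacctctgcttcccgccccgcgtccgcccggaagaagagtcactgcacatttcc
Ndufs5, chr4:123718187-123718436, minus strand: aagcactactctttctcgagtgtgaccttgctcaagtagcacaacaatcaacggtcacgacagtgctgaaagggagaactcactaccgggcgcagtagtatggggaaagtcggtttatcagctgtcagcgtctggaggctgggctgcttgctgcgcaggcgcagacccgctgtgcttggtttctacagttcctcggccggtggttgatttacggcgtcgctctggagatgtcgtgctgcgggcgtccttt
Ndufa6, chr15:82354292-82354541, minus strand: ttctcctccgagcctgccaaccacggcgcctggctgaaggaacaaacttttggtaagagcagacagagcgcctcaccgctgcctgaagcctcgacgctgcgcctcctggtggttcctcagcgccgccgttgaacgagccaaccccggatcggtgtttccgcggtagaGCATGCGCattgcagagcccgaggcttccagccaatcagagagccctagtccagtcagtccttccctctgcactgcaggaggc
Ndufa8, chr2:36049339-36049588, minus strand: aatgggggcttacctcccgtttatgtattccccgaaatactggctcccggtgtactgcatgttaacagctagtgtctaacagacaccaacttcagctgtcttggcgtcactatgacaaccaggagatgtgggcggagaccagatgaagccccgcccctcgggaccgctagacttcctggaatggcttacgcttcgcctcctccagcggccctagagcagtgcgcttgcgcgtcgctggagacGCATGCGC
In Ndufa6 the NRF1 letters began at position −83 and in Ndufa8 at position −8, where position 0 is the first transcribed base. The ETS letters of Ndufs3 began at position 0, just past the stretch shown. The share of G and C in the stretches shown was 53.6% in Ndufv1, 59.2% in Ndufs3, 56.4% in Ndufs5, 62.4% in Ndufa6 and 58% in Ndufa8. Over the 34 windows its median was 57.6% (range 42% to 68%), and over all windows 52.4%.

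Array medians lay between 6.49 and 6.58, correlations between arrays between 0.934 and 0.989, and 0 pairs of arrays were identical. The number of mice limits the precision. Tnf was lower in cre mice, 4.67 ± 0.43 (SD, n = 10), than in wt mice, 6.66 ± 0.69 (SD, n = 10), with no overlap (highest cre 5.34, lowest wt 5.78; log2 difference −1.99, SE 0.24, limma adjusted p = 0.000822). Whether its probe set covers the floxed part is not given in the sources used here. Adipoq was at 17.4 to 19.3 in wt and 18.6 to 19.6 in cre mice, and Adgre1 at 11.4 to 14.3 and 10.7 to 13.9. Markers of tissues other than white fat set 6 mice apart, each with a list mean over 1 log2 unit higher than in any further mouse of its genotype. They included wt 6 (seminal vesicle 16.8 against at most 5.66, and the prostate list). In the prostate list only Spink1 was high in wt mice (highest 16.8), while Pbsn, Sbp and Tgm4 reached at most 5.08, 5.39 and 5.47. The other wt mice set apart were wt 4 (liver 15 against at most 12, and pancreas) and wt 7 (skeletal muscle). The cre mice set apart were cre 2 (brown adipocyte, 8.04 against at most 6.49), cre 3 (seminal vesicle) and cre 9 (erythroid 10.8). Leading results are given without these 6 mice as well. The rule cannot set apart mice that share a high list mean. In the liver list cre 10 and cre 4 had means of 13.2 and 13.13, with a lowest cre mean of 7.86, and both were kept. The lowest Adipoq values were those of wt 5 and wt 6 (17.57 and 17.38).

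Over all 20 mice, differences of complex I genes between the genotypes were small against the spread between mice. Of the 35 genes, 0 passed limma's test after Benjamini-Hochberg adjustment over all probe sets (1 probe set in all, 0.0045%, did). At an unadjusted p under 0.05, 1 of 35 passed, Ndufs1, where 6.29% of all probe sets did. By the selection stated for the study, which adds a fold of at least 1.5, 0 of 35 passed (background 1.04%). The log2 difference, cre minus wt, was above 0 for 23 and below 0 for 12 genes, with a median of 0.116, and 50.7% of all probe sets were above 0 (median 0.003). With Adipoq as a covariate, or without cre 7 and cre 9, which had the lowest Adgre1 values, 14 of 35 were above 0; without the 6 mice set apart 27 were, and without cre 4 26 were.

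Among the catalytic subunits, 3 were higher and 3 lower in cre. Ndufs1, the largest subunit of the matrix arm and a carrier of iron-sulfur clusters, ranged from 9.80 to 11.03 in wt (median 10.42) and from 10.11 to 11.76 in cre mice (median 10.83). The groups overlapped from 10.11 to 11.03, and the highest values were those of cre 9 and cre 7 (11.76 and 11.48). Its means were 10.36 ± 0.40 and 10.88 ± 0.50 (SD, n = 10 each), a difference of 0.52 (SE 0.20, unadjusted p = 0.0154, limma adjusted p = 0.770). Ndufv1, which binds the flavin and oxidises NADH, ranged from 12.17 to 13.52 in wt (median 13.22) and from 12.59 to 14.17 in cre mice (median 13.24), a difference of 0.33 (SE 0.19, limma adjusted p = 0.818). Both medians of Ndufv1 were nearly equal, and again cre 9 and cre 7 were highest (14.17 and 14.10). Ndufs3, a subunit without a cofactor beside the ubiquinone site, differed by 0.17 (SE 0.19). The remaining catalytic subunits, which hold further iron-sulfur clusters, lay the other way: Ndufs7 by −0.32 (SE 0.19), Ndufv2 by −0.28 (SE 0.15) and Ndufs8 by −0.18 (SE 0.19).

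Of the 9 accessory subunits of the matrix arm 6 were above 0, from −0.30 for Ndufa7 to 0.20 for Ndufs4, the latter needed to hold the NADH-binding part in place. In the proximal membrane arm 4 of 9 were above 0. The lowest were Ndufc1 (−0.31, SE 0.22) and Ndufa3 (−0.31, SE 0.19), small membrane subunits, and the highest was Ndufs5 (0.27, SE 0.22), a subunit on the intermembrane side. In the distal membrane arm 9 of 10 were above 0, with a median of 0.163. Ndufb3, a small membrane subunit there, was the highest of these, at 11.30 ± 0.70 in wt and 11.77 ± 0.51 in cre mice (SD, n = 10 each; difference 0.47, SE 0.26, limma adjusted p = 0.810). In wt mice Ndufb3 ranged from 10.15 to 11.98, with wt 6, wt 5 and wt 9 below 10.5 (10.15, 10.29 and 10.49), and in cre mice from 10.81 to 12.57. Ndufb4 (0.14) has a near-identical copy in the genome, so its value is uncertain. Ndufa4 of complex IV differed by 0.09.

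The small overall difference combined opposite differences in the batches. In batch 1, 29 of 35 genes were higher in cre (median 0.418), and in batch 2, 6 of 35 were (median −0.198), whereas 49.8% and 52.9% of all probe sets were higher. The mean over the 35 genes was 11.23 ± 0.26 in wt and 11.57 ± 0.31 in cre mice of batch 1 (SD, n = 5 each; difference 0.34, SE 0.18). In batch 2 it was 11.29 ± 0.15 and 11.05 ± 0.33 (SD, n = 5 each; difference −0.24, SE 0.16). Within both batches the values of the genotypes overlapped. Over both batches the means were 11.26 ± 0.20 and 11.31 ± 0.41 (SD, n = 10 each; difference 0.05, SE 0.14), and without the 6 mice set apart the difference was 0.11. The extremes were cre mice: cre 7, cre 9 and cre 5, all of batch 1, had the highest means (11.94, 11.75 and 11.67), and cre 4 of batch 2 had the lowest (10.47). Of the 35 genes, 17 had their lowest value of all mice in cre 4 and 8 in wt 5, while 13 had their highest in cre 7 and 10 in cre 9.

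**Figure D1:**
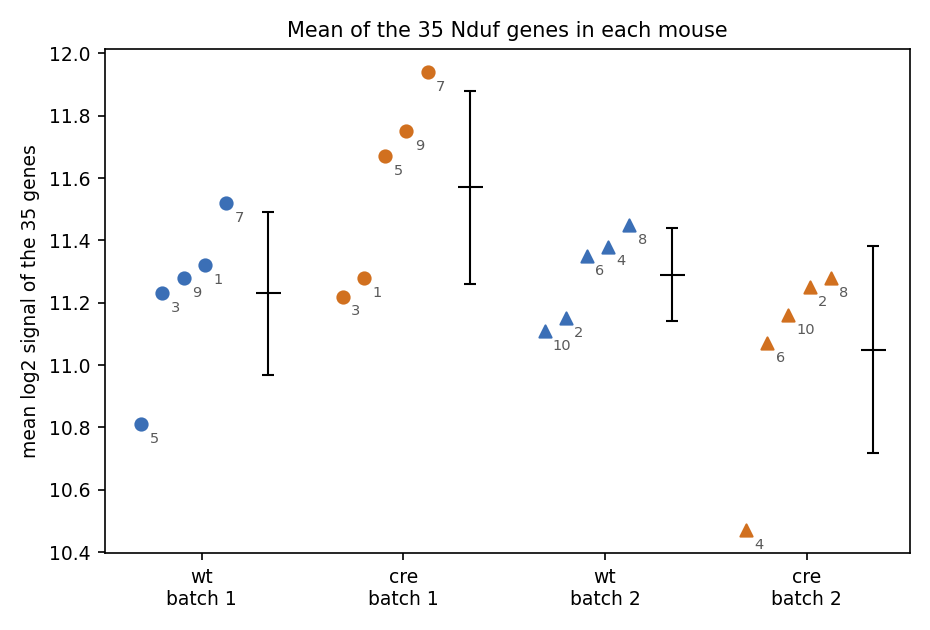
Mean log2 signal of the 35 genes in each mouse (points, labelled by replicate number; circles batch 1, triangles batch 2), by genotype and batch on the horizontal axis, with the group mean and SD (black bars, n = 5). Batch 1 cre mice reach 11.94, and cre 4 of batch 2, at 10.47, lies below all other mice.

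Limma's interaction of genotype with batch, batch 2 minus batch 1, was below 0 for 34 of 35 genes (46.6% of all probe sets), with a median of −0.562. At an unadjusted p under 0.05, 7 of 35 genes had a lower cre-minus-wt difference in batch 2, against 4.27% of all probe sets, and after adjustment 0 did, as for all probe sets (0%). Ndufs6, a zinc-binding accessory subunit of the matrix arm, had the smallest p. In batch 1 its signals were 11.60, 11.36, 11.12, 11.69 and 11.65 in wt and 11.62, 11.55, 11.92, 12.14 and 12.29 in cre mice. In batch 2 they were 11.28, 11.69, 12.28, 11.79 and 10.75 in wt and 10.80, 10.78, 11.43, 11.15 and 11.07 in cre mice. The groups overlapped in both batches. In batch 1 it was at 11.48 ± 0.24 in wt and 11.91 ± 0.32 in cre mice, and in batch 2 at 11.56 ± 0.57 and 11.05 ± 0.27 (SD, n = 5 each; interaction −0.93, SE 0.33, unadjusted p = 0.0110, limma adjusted p = 0.654). The order of its group means thus differed between the batches. Ndufs1 was higher in cre by 0.97 on average among the mice of batch 1 and by 0.06 among those of batch 2 (interaction −0.91, SE 0.35, limma adjusted p = 0.654). Ndufb2, a subunit of the distal membrane arm, differed by 0.60 and −0.37 (interaction −0.97, SE 0.38, limma adjusted p = 0.654). The other 4 were Ndufb5, Ndufb7, Ndufb9 and Ndufa4, so 4 of the 7 belong to the distal membrane arm, which holds 10 of the 35 genes. Ndufs7 was the exception, with −0.44 in batch 1 and −0.20 in batch 2.

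**Figure D2:**
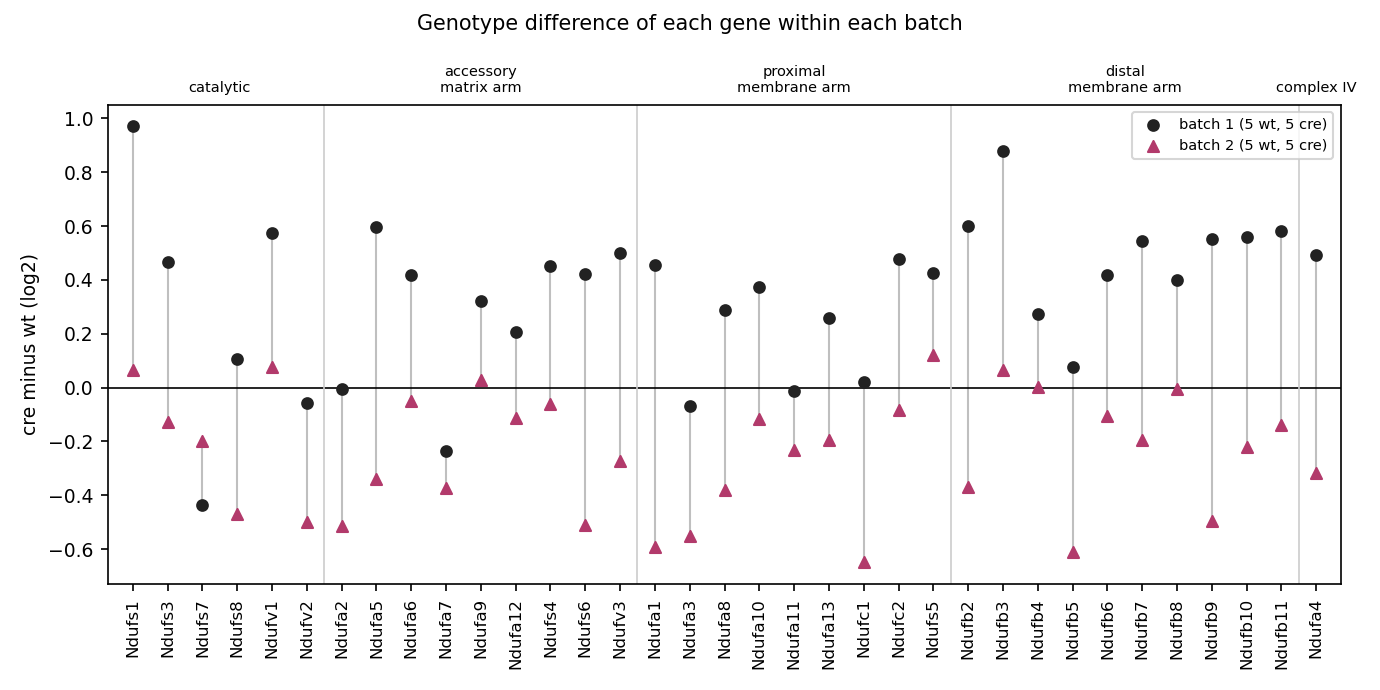
Log2 difference, cre minus wt, of each gene within batch 1 (circles) and batch 2 (triangles), each from 5 wt and 5 cre mice, with genes in blocks by role. The circle lies above the triangle for 34 of 35 genes, and Ndufs7 is the exception.

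Without cre 7 and cre 9, 34 of 35 interactions were still below 0 (median −0.435), but 0 had an unadjusted p under 0.05. Of all probe sets 2.4% then had such a p with a lower difference in batch 2. In batch 1 the count of genes higher in cre was 29, with a median of 0.18 in place of 0.418. The 7 became 4 without wt 5 (4.17% of all probe sets), cre 4 (3.37%) or cre 7 (3.36%). It was 4 with Adgre1 as a covariate (3.95%), with 33 of 35 interactions below 0 (median −0.409). With Adipoq as a covariate it was 10 (5.08%), with 34 of 35 below 0 (median −0.528). It was 11 without wt 7 (4.17%) or cre 8 (4.48%), and 12 without cre 3 (5.33%). In batch 2, leaving out cre 4 gave 14 of 35 higher, wt 6 gave 3 and cre 2 gave 2. Without the 6 mice set apart by other tissues, 34 of 35 were higher in batch 1 and 3 of 35 in batch 2. Macrophage markers also differed between the batches: cre minus wt was −0.67 for Adgre1 in batch 1 but 0.12 in batch 2. Of 11 macrophage markers 1 was higher in cre in batch 1 (median −0.711) and 5 in batch 2 (median −0.048), and their mean ranged from 11.57 to 13.37 in wt and from 10.09 to 12.58 in cre mice. Of 10 mature adipocyte markers, 8 and 10 were higher (medians 0.123 and 0.373). Their part in the result was not tested beyond the covariate fits.

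Across mice the complex I genes were lower where Adgre1 was higher. In a limma model with genotype, batch and Adgre1, 33 of 35 coefficients were below 0, as were 55.3% of those of all probe sets. After adjustment 11 of 35 genes were lower with Adgre1, against 2.57% of all probe sets, and 0 of 35 were higher, against 6.26%. The median coefficient was −0.254, in log2 units of the gene per log2 unit of Adgre1.

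Ndufs5 had the steepest of these, −0.48 (SE 0.08, limma adjusted p = 0.000367). Its signal ranged from 9.92 to 11.72 in wt (median 11.29) and from 10.68 to 12.35 in cre mice (median 11.35). The lowest was that of wt 5, with the highest Adgre1 (14.28), and the highest were those of cre 9 and cre 7, with the lowest Adgre1 (10.66 and 11.01). Ndufs3 had the next smallest p, with −0.39 (SE 0.07, limma adjusted p = 0.000801), and its signal ranged from 12.64 (wt 5) to 13.74 in wt and from 12.44 (cre 4) to 14.52 (cre 9) in cre mice. Ndufv1 fell by 0.40 per unit (SE 0.07, limma adjusted p = 0.001). These 3 genes thus had their extremes in the same few mice. The other 8 past adjustment were Ndufb10, Ndufb11 and Ndufb7 of the distal membrane arm, Ndufa2, Ndufv3, Ndufa9 and Ndufa5 of the matrix arm, and Ndufc2 of the proximal membrane arm. Their coefficients went from −0.39 for Ndufa5 to −0.23 for Ndufa9. Ndufb3 had a coefficient as low as Ndufv1, −0.40, with a wider error (SE 0.13, limma adjusted p = 0.0511). Catalytic subunits stood at both ends: 2 of 6 fell, while Ndufs7 (0.13, SE 0.10) and Ndufv2 (−0.02, SE 0.09) were among the 3 highest, with Ndufa7 (0.04, SE 0.11) between them.

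**Figure D3:**
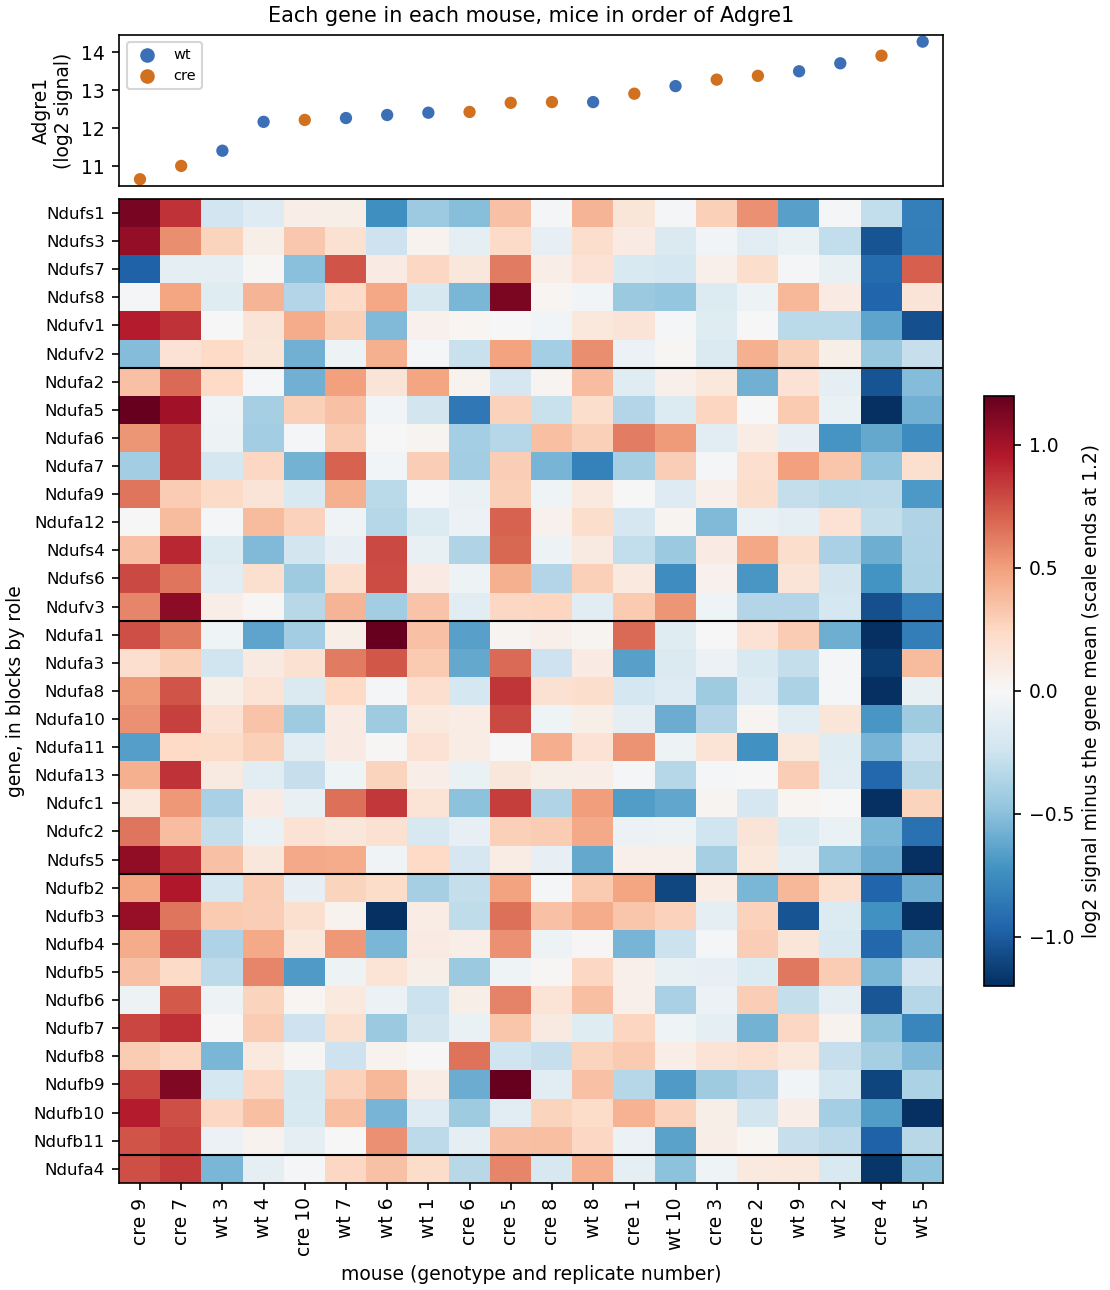
Log2 signal of each gene minus its mean over the 20 mice (colour; red higher, blue lower), genes in blocks by role from top to bottom and mice from the lowest Adgre1 on the left to the highest on the right, with the Adgre1 signal of each mouse above (blue wt, orange cre). Red fills most of the columns of cre 9 and cre 7 and blue those of cre 4 and wt 5, with Ndufs7 of cre 9 and wt 5 against their columns.

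The call of single genes depended on these mice. The count of 11 became 3 without wt 5 (0.865% of all probe sets were then lower with Adgre1), 4 without cre 4 (2.03%), 5 without cre 7 (1.55%), 5 without cre 9 (1.47%) and 2 without both cre 7 and cre 9 (0.527%). It was 17 without wt 3 (3.16%). The share over all probe sets thus moved as well, while 32 to 34 of 35 coefficients were below 0 whenever 1 mouse was left out. In batch 1 alone 7 genes were lower with Adgre1 (2.9% of all probe sets), and in batch 2 alone 0 were (as for all probe sets), with 30 and 32 of 35 below 0. Without the 6 mice set apart 4 were (1.76%), with 32 below 0. With the mean of the macrophage markers in place of Adgre1, 7 were (3.41%), with 31 below 0.

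As a description of the 20 mice, the mean of the 35 genes correlated with Adgre1 at Pearson r = −0.735 (Spearman rho −0.632). Within groups r was −0.677 in wt and −0.787 in cre mice, and −0.779 in batch 1 and −0.632 in batch 2. Without cre 7 and cre 9, the mice farthest from the median of Adgre1, r was −0.571, and without the 6 mice set apart it was −0.693. With the mean of the 11 macrophage markers in place of Adgre1, r was −0.592 over all mice, −0.784 in batch 1, −0.223 in batch 2 and −0.281 without cre 7 and cre 9. These values share arrays and their normalization, and Adgre1 and Adipoq were themselves related (r = −0.508). In cre 4, with the lowest mean, Adgre1 was 13.91 and the mean of the mitochondrial list 12.53 (12.52 to 13.21 in the other mice). Its liver markers had a mean of 13.13. That was below the liver means of wt 4 (15.04) and cre 10 (13.2), whose means of the 35 genes were 11.38 and 11.16. The part of these values in the result was not tested.

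With Adipoq, 30 of 35 coefficients were above 0 (53% of all probe sets) and 4 of 35 genes passed adjustment as higher, against 3.83% of all probe sets. Ndufb3 rose most, by 0.89 per log2 unit of Adipoq (SE 0.16, limma adjusted p = 0.00107). The low Ndufb3 values of wt 6 and wt 5 were those of the mice with the lowest Adipoq. Ndufv1 rose by 0.61 (SE 0.13, limma adjusted p = 0.006), Ndufb10, a subunit facing the intermembrane space, by 0.61 (SE 0.17, limma adjusted p = 0.0274) and Ndufv3, a small accessory subunit, by 0.56 (SE 0.16, limma adjusted p = 0.034). The lowest coefficients were those of Ndufa1 (−0.19, SE 0.28), Ndufs7 (−0.12, SE 0.18) and Ndufs4 (−0.09, SE 0.18). Without wt 5 the count of 4 became 1 of 35 (3.22% of all probe sets), and with Adgre1 in the same model it was 1 of 35 (2.86%), shares near the background. Without wt 6 it became 12 (3.63%), without the 6 mice set apart it was 4 (1.27%), and it was 1 in batch 1 (1.44%) and 1 in batch 2 (2.31%). In the model with both, 6 genes passed for Adgre1 (2.35%).

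The mean of the 35 genes correlated with Adipoq at r = 0.448 (rho 0.453), and without wt 5 and wt 6, the mice farthest from the median, at 0.576; without the 6 mice set apart r was 0.591. The batches did not match: r was 0.921 in batch 1 and −0.0549 in batch 2, and 0.368 in batch 2 without wt 6. In wt 6, which carried the seminal vesicle markers, Adipoq was lowest (17.38) but the mean of the 35 genes was 11.35. In cre 2, with the brown adipocyte markers, that mean was 11.25.

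**Figure D4:**
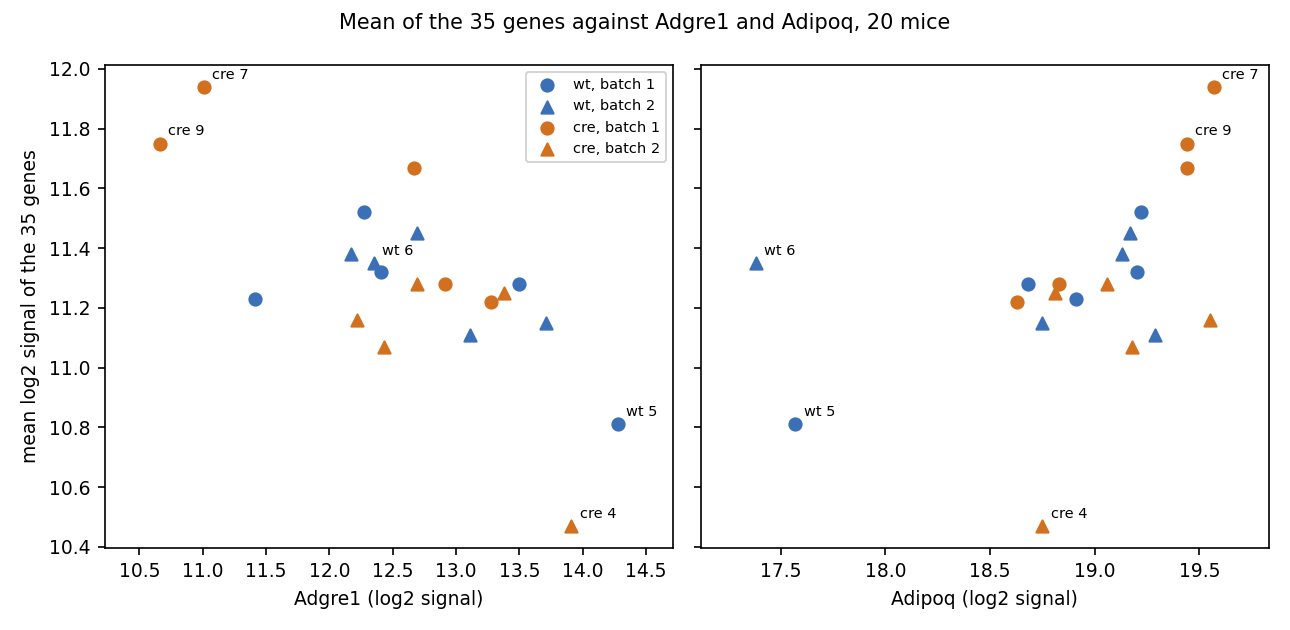
Mean log2 signal of the 35 genes in each of the 20 mice (vertical axis) against its log2 signal of Adgre1 (left) and Adipoq (right); colour gives the genotype and shape the batch. The mean falls towards high Adgre1 (r = −0.735), and wt 6 lies apart on the right, with low Adipoq and a mean of 11.35.

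**Figure D5:**
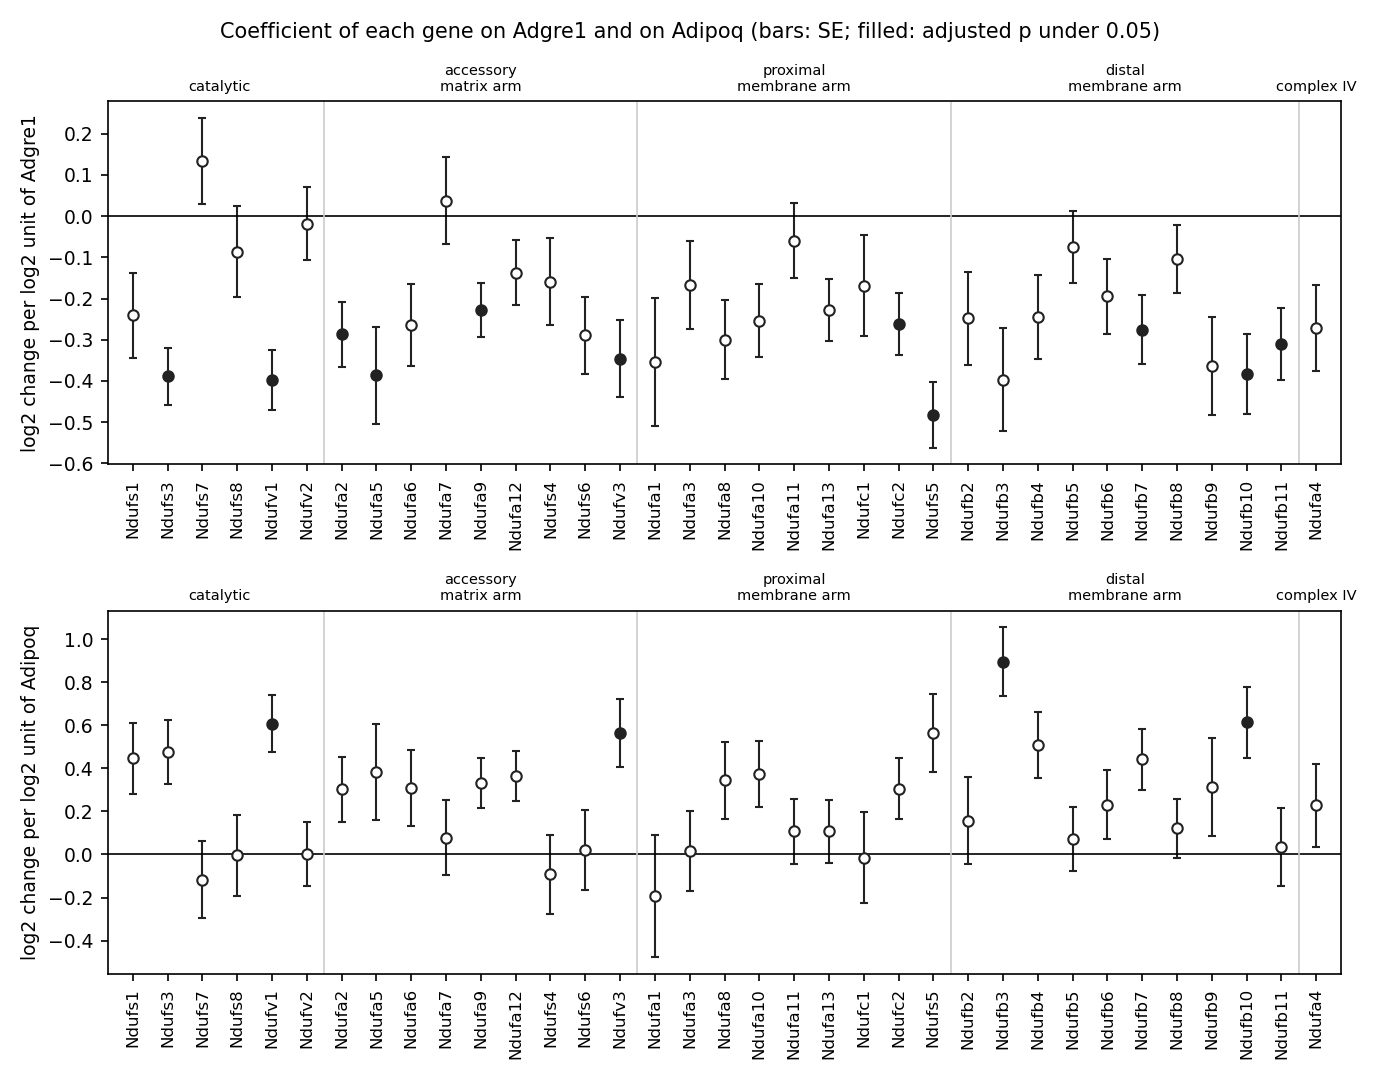
Coefficient of each gene, in log2 units per log2 unit of Adgre1 (top) or Adipoq (bottom), from models with genotype and batch over 20 mice; bars are SE and filled circles have a limma adjusted p under 0.05. Of 35 coefficients 33 lie below 0 for Adgre1 and 30 above 0 for Adipoq.

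The genes varied together across the mice. Of 595 pairs, 569 had a correlation above 0 over the 20 mice, with a median of 0.494 (0.491 after genotype and batch were removed). The closest pairs were Ndufa3 with Ndufc1 (r = 0.932), small subunits of the proximal membrane arm, and Ndufs3 with Ndufv1 (r = 0.908). The first principal component of the standardised genes held 50.3% of their variance. Ndufs7, which carries the last iron-sulfur cluster before ubiquinone, stood apart, with r = 0.116 to the mean of the others and −0.323 to Ndufs5. Ndufa11 (0.233), Ndufa7 (0.284), Ndufb8 (0.337) and Ndufv2 (0.345) were the next lowest. Ndufa4 of complex IV, at 0.915, followed the complex I genes. Ndufa1 varied most over all mice (SD 0.71), with its highest value in wt 6 (12.08), and Ndufa12 least (SD 0.29).

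Other genes of the pathway were given by lists. Ndufab1, the mitochondrial acyl carrier protein and a subunit outside the name pattern, differed by 0.13 (SE 0.18) between genotypes. Of 18 assembly factors, 9 were higher and 9 lower in cre, 5 had an unadjusted p under 0.05 (3 higher, 2 lower) and 0 passed adjustment. The smallest p were those of Nubpl, which delivers iron-sulfur clusters to complex I (0.29, SE 0.10, unadjusted p = 0.00895, limma adjusted p = 0.770), Dmac1, which builds the distal membrane arm (−0.38, SE 0.15), and Ndufaf2, a late assembly factor (0.32, SE 0.13). Of 11 regulators of mitochondrial gene expression, 8 were higher and 3 lower, with Ppargc1a, the coactivator PGC-1α, at 0.67 (SE 0.26, unadjusted p = 0.0165, limma adjusted p = 0.770) and Tfam, which packages mitochondrial DNA, at −0.31 (SE 0.15, limma adjusted p = 0.785). Of 12 other mitochondrial genes 9 were higher, and Timm23, a channel of protein import, differed by 0.31 (SE 0.15, limma adjusted p = 0.789). In these 3 lists 0 genes passed limma's adjusted test for genotype. In them 5, 2 and 1 had an unadjusted p under 0.05, against 6.29% of all probe sets.

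In the models with Adgre1, 1 of 18 assembly factors, 1 of 11 regulators and 1 of 12 other mitochondrial genes were lower after adjustment (2.57% of all probe sets). A further 1 of 11 regulators was higher with Adgre1 (6.26% of all probe sets). These genes, singled out after their values were seen, were Ndufaf7 (−0.32, limma adjusted p = 0.0275), an assembly factor, Tfb2m (−0.35, limma adjusted p = 0.0398), a mitochondrial transcription factor, Hspa9 (−0.42, limma adjusted p = 0.00698), a matrix chaperone, and, higher with Adgre1, Nrf1 (0.33, limma adjusted p = 0.0325), the nuclear regulator whose letters were searched in the promoters. In the models with Adipoq, Ndufab1 was higher by 0.59 per unit (limma adjusted p = 0.00373). After adjustment 1 of 18 assembly factors, 0 of 11 regulators and 4 of 12 other mitochondrial genes were higher with Adipoq (3.83% of all probe sets). As a description over 20 mice, the mean of the 35 genes correlated with the mean of the other mitochondrial genes at r = 0.777 and with that of the assembly factors at r = 0.769.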

How the data were processed

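Whole fat pad RNA of 20 mice was amplified and biotin-labelled (GeneChip WT PLUS), as the labels' protocols state, and each array holds 1 mouse. The deposited values are log2 signals from the authors, for which the submitters' processing notes name build mm10, RMA and Transcriptome Analysis Console 4.0.2.15. Since RMA makes arrays alike, a shift of nearly the whole transcriptome would not be seen. Signals of different probe sets are not comparable, so genes were not ranked by level. Whether the values were filtered or corrected for batch before deposit is not given in the sources used here.

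Groups, batches and replicate numbers came from the sample titles. Of 22206 probe sets, 19572 had 1 symbol and 2634 had none in the platform annotation. All 35 genes had a single probe set, the same symbol in the current RefSeq table and a mean above the 7402 lowest of all probe sets.

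Genotype, batch, their interaction, Adipoq and Adgre1 were fitted with limma 3.58.1 in R 4.3.3 over all probe sets, with two-sided tests, Benjamini-Hochberg adjustment over all of them and a threshold of 0.05. The fits were tested on simulated data. Named with values were the catalytic subunits, the 3 highest and 3 lowest differences and coefficients, genes with an unadjusted p under 0.05 for genotype, the 3 smallest interaction p, the extremes of SD, and up to 3 genes of smallest p per list. The genes and lists were chosen with earlier results of these data known. The same-numbered wt and cre mice did not deviate together (correlations from −0.303 to 0.339, 4 of 10 above 0.1), so the numbers were not used as pairs. Alternatives were other batch terms, priors, filters, normalizations, array weights, covariates and left-out mice; leaving out cre 7 and cre 9 together, and the covariate and set-apart fits of the interaction, were chosen after seeing the data.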

Additional observations from a re-analysis of the deposited data

Results flagged for a closer look

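Among 76 sets of 10 mice (each of the 35 genes, their mean, Adipoq and Adgre1 within each genotype, by a test of single outlying values that chance passes in about 1 of 20 sets), 4 held a mouse far from the rest. Ndufa1 was 12.08 in wt 6, and the next highest wt mouse had 10.61. Ndufb11 was 8.53 in cre 4, below the next lowest cre mouse at 9.39, and Ndufb6 was 10.57 in cre 4, below the next at 11.53. Ndufs3 was 12.64 in wt 5, below the next lowest wt mouse at 13.18.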

How the results depend on the processing

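The number of genes past adjustment for genotype, and for its interaction with batch, was 0 under all 34 and 27 alternatives. Genes higher in cre (23 of 35) numbered 6 in batch 2 alone, and 14 with Adipoq as a covariate or without cre 7 and cre 9. The difference of the mean (0.05) was 0.34 in batch 1 and −0.24 in batch 2, and Ndufc1 (−0.31) was reversed, at 0.0197, in batch 1. The r with Adipoq was 0.921 in batch 1 and −0.0549 in batch 2, while that with Adgre1 lay between −0.832 and −0.571 over 28 alternatives. Counts of genes past adjustment in relation to Adgre1 (11) follow, with the share of all probe sets in brackets. The count was 17 with no batch term (2.95%), 7 in batch 1 (2.9%), 0 in batch 2 (0%) and 18 after quantile normalization (3.32%). It was 4 without wt 5 and wt 6 (2.45%), 4 without the mice set apart (1.76%) and 2 without cre 7 and cre 9 (0.527%). Beside Adipoq it was 6 (2.35%), and with the macrophage list mean 7 (3.41%). When single mice were left out it went from 3 (wt 5, 0.865%) to 17 (wt 3, 3.16%). For Adipoq (4) the count was 1 in batch 1 (1.44%) and 1 in batch 2 (2.31%). It was 8 without the 7402 probe sets of lowest mean (6.35%), 12 with array weights (4.7%) and 2 without cre 7 and cre 9 (3.68%). Beside Adgre1 it was 1 (2.86%), and with the adipocyte list mean 2 (4.43%). When single mice were left out it went from 1 (wt 5, 3.22%) to 12 (wt 6, 3.63%). With the replicate block, where the numbers do not pair the mice, 6 genes passed for Adgre1 (0.599%), 0 for Adipoq (1.79%) and 0 for genotype. Fewer mice were fitted in the batches and where mice were left out; the cause of the other changes was not tested. Each gene had 1 probe set, so the mean over probe sets of a gene is the value reported.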
